A study of Mus musculus with 24 samples.

Results

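The Dppa and Sall genes described here were Dppa2, Dppa3, Dppa4, Dppa5a, Sall1, Sall2, Sall3 and Sall4. Their intervals were those consensus peaks whose nearest transcription start site (TSS), in the authors' annotation, belongs to one of the 8 genes, whether the peak lies at the promoter or far from it. The rule gave 47 of 145143 intervals, 29 of them at Dppa genes and 18 at Sall genes. Dppa2 had 10, Dppa3 had 10, Dppa4 had 4, Dppa5a had 5, Sall1 had 6, Sall2 had 3, Sall3 had 4 and Sall4 had 5. An interval was counted as a promoter interval when it was annotated as promoter or when its centre lay within 1000 bp of the nearest TSS, which held for 8 intervals and left 39 others.

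Open chromatin was profiled with ATAC-seq (a transposase cuts accessible DNA and leaves sequencing adapters there) in mouse embryonic stem cells (mESCs) kept on gelatin with LIF, the MEK inhibitor PD0325901 and the GSK3 inhibitor CHIR99021. The KO Firre line lacks the gene of the long noncoding RNA Firre and carries a doxycycline-inducible Firre transgene, and the KO control line lacks Firre and has no labelled transgene. The WT Firre line carries the inducible transgene on a wild type background, and the WT control line has neither change. Libraries of all 4 lines, controls included, were made at 0, 30, 60, 90, 120 and 150 min of doxycycline, with 1 library per line and time. Counts of 23 libraries were analysed (6 for the KO Firre line, 6 for the KO control line, 5 for the WT Firre line and 6 for the WT control line), and the WT Firre library at 60 min was not analysed here. The labels name no second clone for any line, so a difference between genotypes cannot be told apart from one between clones. No p-value measures how clones of a genotype vary. The spread behind each edgeR p-value was pooled over the libraries of all 4 lines and partly shared across intervals. The promoter that drives the transgene is not given in the sources used here.

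DPPA2 and DPPA4 are SAP-domain proteins that bind each other and sit at CpG-rich promoters in pluripotent cells, where they are known for keeping developmental genes open to later activation and for supporting early embryonic and germline genes. DPPA3, also called Stella, is a maternal and germ cell protein that restrains UHRF1-guided DNA methylation, and DPPA5A (ESG1) is a KH-domain RNA-binding protein made in pluripotent cells. The SALL proteins are zinc finger transcription factors related to Drosophila spalt, and their N-terminal end recruits the NuRD deacetylase and remodelling complex. SALL4 belongs to the core pluripotency factors of mESCs and SALL1 is also present in them, while Sall2 and Sall3 are better known from neural and limb development.

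The libraries held 5725518 to 14977148 counts in intervals (median 7664147). Levels are given as CPM, counts scaled to library sizes corrected by TMM. Where an interval has no count, a level of up to 0.391 CPM remains possible at the median depth (3 counts, counting error only). The 20 intervals assigned to Firre itself summed to 23.1 ± 4.04 CPM in the KO Firre line (SD, n = 6) and 10.2 ± 2.84 CPM in the KO control line (n = 6), and to 127 ± 9.75 CPM in the WT Firre line (n = 5) and 91.4 ± 7.13 CPM in the WT control line (n = 6), so the order of the lines went with their labels. All 8 naive mESC markers (Pou5f1, Nanog, Sox2, Klf4, Esrrb, Zfp42, Tfcp2l1 and Tdh) had a promoter interval, with sums per library of 343 to 474 CPM over the 4 lines. Of 6 fibroblast markers, 5 had one and Col1a2 had none. Their sums were 70.7 to 76.4 CPM in the KO Firre line, 65.9 to 78.6 CPM in the KO control line, 65.9 to 74.7 CPM in the WT Firre line and 67.2 to 75.8 CPM in the WT control line. Of 3 primitive endoderm markers, 2 had one and Sox17 had none. Their sums were 44.0 to 53.3 CPM in the KO Firre line and 45.0 to 52.4 CPM in the KO control line. They were 45.2 to 48.7 CPM in the WT Firre line and 45.1 to 48.5 CPM in the WT control line. The sums cover 10 naive, 6 fibroblast and 3 primitive endoderm promoter intervals, so they are not comparable between lists. Accessibility of a promoter is not expression, and in bulk libraries fewer cells with an open interval and less opening per cell cannot be told apart.

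Promoter sequences were at hand for 2 of the 8 genes, Sall1 and Sall2, as RefSeq windows of 300 bases (250 before to 50 after a gene start) on assembly GRCm38.p6, which mm10 is built on. They are shown because an accessible interval covers the Sall1 windows and only the proximal of the Sall2 windows. Capitals mark CG dinucleotides and the word TATAAA. For Sall1, on the minus strand of chromosome 8, the outermost window (chr8:89044113-89044412) and the one richest in CG (chr8:89042813-89043112) are given. For Sall2, on the minus strand of chromosome 14, the distal window (chr14:52328621-52328920) and the proximal one (chr14:52316274-52316573) are given.
Sall1 outermost: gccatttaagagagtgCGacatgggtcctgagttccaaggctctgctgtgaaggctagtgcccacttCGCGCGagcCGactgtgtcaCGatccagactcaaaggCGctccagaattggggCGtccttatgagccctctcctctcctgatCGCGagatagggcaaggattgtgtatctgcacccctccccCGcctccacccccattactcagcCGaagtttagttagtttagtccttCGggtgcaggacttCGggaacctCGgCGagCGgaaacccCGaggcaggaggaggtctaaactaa
Sall1 CG-rich: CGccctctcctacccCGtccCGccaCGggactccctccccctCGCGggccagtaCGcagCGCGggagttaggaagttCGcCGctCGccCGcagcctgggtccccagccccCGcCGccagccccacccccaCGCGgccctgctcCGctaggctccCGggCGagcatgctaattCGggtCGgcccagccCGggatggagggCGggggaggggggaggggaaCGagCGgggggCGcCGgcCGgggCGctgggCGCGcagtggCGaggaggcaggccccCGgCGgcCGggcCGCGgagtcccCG
Sall2 distal: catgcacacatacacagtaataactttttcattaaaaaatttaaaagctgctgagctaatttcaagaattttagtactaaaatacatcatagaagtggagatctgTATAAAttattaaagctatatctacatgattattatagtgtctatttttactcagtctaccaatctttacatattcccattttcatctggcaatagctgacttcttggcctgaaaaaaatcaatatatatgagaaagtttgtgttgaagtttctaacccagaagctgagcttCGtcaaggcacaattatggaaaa
Sall2 proximal: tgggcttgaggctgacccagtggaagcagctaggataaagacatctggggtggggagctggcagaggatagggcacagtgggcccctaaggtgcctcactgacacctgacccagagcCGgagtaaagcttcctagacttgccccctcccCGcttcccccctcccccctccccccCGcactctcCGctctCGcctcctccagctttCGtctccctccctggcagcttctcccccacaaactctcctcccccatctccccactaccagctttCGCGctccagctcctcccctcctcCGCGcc

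The Sall1 windows held 18 and 39 CG dinucleotides, against a median of 7 over all 32851 RefSeq promoter windows, and both lay wholly inside 1 interval of 3999 bp. That interval was the widest of the Dppa and Sall intervals. The proximal Sall2 window held 10 CG dinucleotides and lay wholly inside the 3621 bp interval at the start of that gene. The distal Sall2 window held 1 CG dinucleotide, had 30.3% G and C, and lay 80 bp outside the nearest interval, so the start that RefSeq gives as Sall2's outermost was not in a called peak. The words ATGCAAAT (POU factors), ACAATGG (SOX factors), AAGGTCA (nuclear receptors), GGGTGTG (KLF factors), CCGGAAG (ETS factors), TATAAA (the TATA box) and ATATT (an AT-rich word bound by SALL4) were searched on both strands with exact matches. The distal Sall2 window held TATAAA 1 time and ATATT 2 times, and none of the 7 words was found in the other printed windows. Of all RefSeq windows, 13.6% held TATAAA and 25.3% held ATATT, and 1.74% to 8.86% held each of the other words.

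The genes differed in how accessible their surroundings were per length. Summed over the intervals named after each gene and averaged over all libraries, Dppa5a had 13.9 CPM per kb, followed by Sall1 with 9.74, Sall2 with 6.66, Sall3 with 6.56, Dppa2 with 6.35, Sall4 with 5.90, Dppa3 with 5.53 and Dppa4 with 4.72 CPM per kb. The median of all intervals was 4.63 CPM per kb, 8.18 for promoter intervals and 4.40 for others. By these names Dppa5a was highest and Sall1 next in every line, and the ranges of these 2 genes over libraries did not overlap within any line. For Dppa5a the values per library were 12.9 to 15.3 CPM per kb in the KO Firre line, 12.1 to 16.5 in the KO control line, 12.4 to 14.1 in the WT Firre line and 12.1 to 13.2 in the WT control line. For Sall1 they were 9.09 to 10.03 CPM per kb in the KO Firre line, 9.44 to 11.8 in the KO control line, 8.84 to 10.7 in the WT Firre line and 8.46 to 9.69 in the WT control line. Sall2, Sall3 and Dppa2 overlapped in each line, so their order did not differ beyond the spread. The order depended on the naming by nearest TSS, which gives 5 intervals in or at Sall1, Sall3 and Sall4 to neighbouring genes. With these added, Dppa5a had 13.9 CPM per kb, Sall4 12.7, Sall1 9.19, Sall3 8.45 and Sall2 6.66 CPM per kb, and the ranges of Dppa5a and Sall4 overlapped in each line. Of the 47 intervals, 32 were above the median of all intervals per kb and 5 were at or above the 90th percentile. Of the 47, 5 were at least 3000 bp long, and 0.828% of all intervals were.

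**Figure D1:**
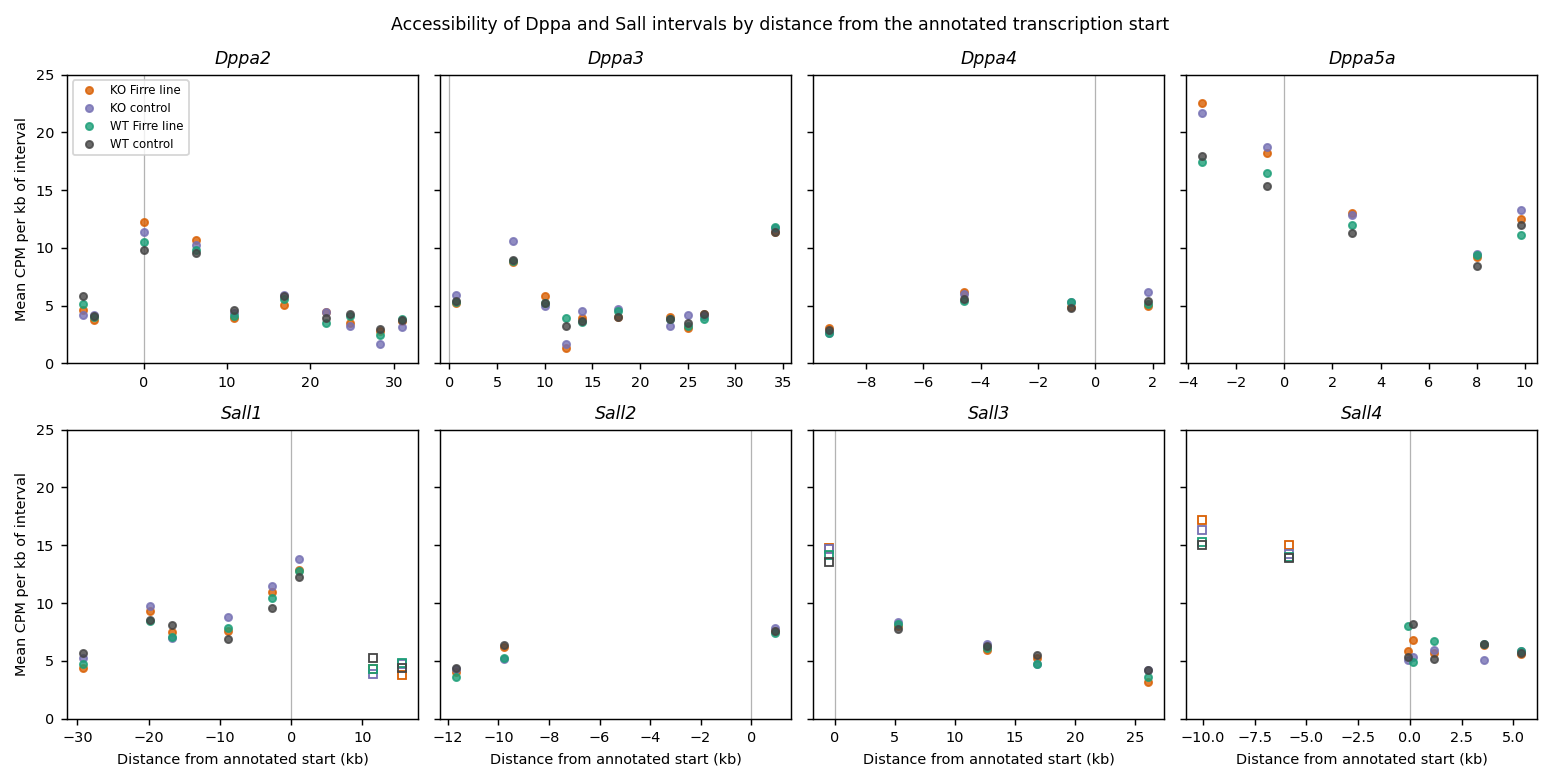
Mean CPM per kb of each interval (vertical axis) against the distance of its centre from the annotated start of its gene in kb (horizontal axis), 1 panel per gene, with 1 point per line; hollow squares are intervals inside the gene whose nearest annotated start belongs to another gene. The highest point belonged to Dppa5a, Sall1 was highest at its start, and the strongest intervals inside Sall3 and Sall4 were hollow squares.

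Among the Dppa genes, Dppa5a had its highest mean per kb not at its promoter but 3.4 kb upstream (chr9:78371398-78371755, 358 bp, intergenic). This was 20.01 CPM per kb, at the 96.9th percentile of all intervals. The Dppa5a promoter (chr9:78367688-78370055) had 17.2 CPM per kb, and an interval 2.8 kb downstream of the start (chr9:78364166-78366552) had 12.3 CPM per kb. In CPM the promoter was higher, at 40.8 against 7.16. Upstream the mean per kb was 22.5 ± 3.48 in the KO Firre line, 21.7 ± 2.71 in the KO control line, 17.5 ± 4.48 in the WT Firre line and 17.9 ± 3.15 in the WT control line (SD). At the promoter it was 18.2 ± 1.63, 18.7 ± 2.40, 16.5 ± 0.609 and 15.3 ± 0.711 in the same order. The upstream mean was thus higher in each line, with overlapping spreads. Both intervals were measured in the same libraries, and their difference within each library was not tested. Dppa2 had strong intervals at each of 2 starts. The one at the start used in the file (chr16:48303084-48304703) had 11.02 CPM per kb, and the one that holds the RefSeq gene start (chr16:48308606-48311636, annotated as promoter although its centre lies 6.2 kb from the other start) had 10.1 CPM per kb. The 2 other Dppa2 intervals highest per kb were at 16.8 kb downstream (chr16:48319825-48321580, 5.58 CPM per kb) and 7.3 kb upstream (chr16:48296417-48296808, 4.93 CPM per kb). Dppa4, which lies next to Dppa2 on chromosome 16, had a wide but shallower promoter interval (chr16:48280998-48284769, 3772 bp, 5.09 CPM per kb). Its intervals 4.6 kb upstream (chr16:48278905-48279378, 5.81 CPM per kb) and 1.9 kb downstream in an intron (chr16:48285272-48285903, 5.41 CPM per kb) were close to it per length.

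Dppa3 was the gene whose promoter stood lowest per kb against the distal intervals named after it. The interval over its start (chr6:122626202-122628693) had 5.46 CPM per kb, at the 33.4th percentile of promoter intervals. The intervals 34.2 kb downstream (chr6:122660629-122661243) and 6.7 kb downstream (chr6:122632951-122633862), both intergenic, had 11.5 and 9.32 CPM per kb, at the 94.8th and 90.8th percentiles of intervals outside promoters. Both carry the name Dppa3 by nearest TSS only, and which gene they act on was not tested. The distal values exceeded the promoter in every line: at 34.2 kb the mean was 11.3 ± 1.7 CPM per kb in the KO Firre line, 11.7 ± 0.67 in the KO control line, 11.8 ± 1.5 in the WT Firre line and 11.3 ± 1.3 in the WT control line (SD, n = 6, 6, 5 and 6). At the promoter it was 5.20 ± 0.66 CPM per kb in the KO Firre line, 5.90 ± 0.16 in the KO control line, 5.35 ± 0.44 in the WT Firre line and 5.38 ± 0.59 in the WT control line. An interval 12.2 kb downstream (chr6:122638792-122639068) averaged 0.690 CPM and was the only one of the 47 that failed the filter on low counts.

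Among the Sall genes, Sall1 was led by the 3999 bp interval over its start and first intron (chr8:89041047-89045045), with 51.7 CPM and 12.9 CPM per kb. It is annotated as intron and its centre lies 1.1 kb from the start, so it was not counted as a promoter interval. Upstream of Sall1 the intervals at 2.6 kb (chr8:89046381-89047189) and 8.9 kb (chr8:89051769-89054295) had 10.6 and 7.77 CPM per kb. Sall2 had 7.60 CPM per kb at its proximal start (chr14:52313560-52317180) and 5.78 and 4.08 CPM per kb in the introns 9.8 kb (chr14:52325767-52326424) and 11.7 kb (chr14:52327459-52328541) away. Sall3 had no promoter interval under its own name. Its strongest were in an intron 5.2 kb from the start (chr18:80979530-80983067, 8.06 CPM per kb) and in an exon at 12.7 kb (chr18:80973029-80974659, 6.19 CPM per kb).

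For Sall3 and Sall4 the naming by nearest TSS moved the main promoter to another gene. Of the intervals annotated as lying in or at the promoter of one of the 8 genes, 5 were assigned to a neighbouring noncoding gene. The interval annotated as Sall3 promoter (chr18:80985851-80988169) carried the name Gm27239 and had 33.2 CPM and 14.3 CPM per kb. The interval that holds the RefSeq start of Sall4 (chr2:168764573-168767385) and one in its first intron (chr2:168760780-168762836) carried the name Gm14261 and had 44.9 and 29.4 CPM, or 16.0 and 14.3 CPM per kb. A pair of exon intervals of Sall1 carried the name Mir8110, with 4.41 and 4.44 CPM per kb. The 5 intervals named Sall4 were narrow, 209 to 834 bp, and lay around a start inside the gene. The promoter intervals among them (chr2:168755671-168755879 and chr2:168755896-168756159) had 1.33 and 1.58 CPM, or 6.37 and 5.97 CPM per kb. The others highest per kb were at 3.6 kb (chr2:168752272-168752494, 6.08 CPM per kb) and 1.2 kb (chr2:168754604-168754926, 5.82 CPM per kb). The 5 reassigned intervals are described beside the 47 and were not counted among them.

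Loss of Firre was compared in the control lines, KO control against WT control. Accessibility was higher in KO control cells at 1 Sall1 interval and at the Dppa5a promoter, and lower at 1 distal Dppa2 interval. By edgeR's quasi-likelihood test, adjusted over 129515 intervals by Benjamini-Hochberg, 2 of 46 tested Dppa and Sall intervals were called higher and 1 was called lower at an adjusted p of 0.05 or less. Over all tested intervals 5.5% were called higher and 2.47% lower, so the counts were near that background. At an unadjusted p under 0.05 were 12 of the 46, against 28719 of all 129515 (edgeR). The split of all calls depended on the scaling: 7128 were higher and 3196 lower with TMM, 3855 higher and 7224 lower with total counts, 3329 higher and 2937 lower with loess offsets, and 5455 higher and 619 lower with DESeq2. The median log2 difference of the 46 intervals was 0.04 with TMM and -0.05 with total counts, against -0.02 and -0.12 for all intervals, and with TMM it was 0.11 for the 8 promoter intervals, against 0.09 for all promoter intervals. The libraries of these lines also differed in the share of counts that fell in promoter intervals, which was 41.0% to 43.1% in the KO control line and 38.1% to 39.7% in the WT control line. The part of this share in the calls was not tested apart from a fit that holds the share as a covariate, in which 0 of 46 intervals were called (56 of all intervals).

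The interval 8.9 kb upstream of Sall1 had a lowest, median and highest value of 19.9, 21.9 and 25.3 CPM in the KO control line, against 15.7, 17.9 and 18.7 CPM in the WT control line. The lines did not overlap, KO control was higher at 6 of 6 times, and this was the only one of the 46 tested intervals without overlap, whereas 3.1% of all tested intervals had none. The means were 22.3 ± 1.83 CPM in the KO control line and 17.3 ± 1.30 CPM in the WT control line (SD, n = 6 each), a log2 difference of 0.35 ± 0.088 (SE; adjusted p = 0.00457, edgeR). The call held when each library was left out in turn, with an adjusted p of 0.00111 to 0.0268, and with DESeq2 (adjusted p = 0.00556). It ended with the promoter share as covariate (log2 difference 0.14, adjusted p = 0.816), with loess offsets (0.22, adjusted p = 0.0637) and without the KO control libraries of 30 and 90 min (0.27, adjusted p = 0.138).

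The Dppa5a promoter had 34.6, 44.4 and 50.5 CPM (lowest, median, highest) in the KO control line, against 33.8, 36.1 and 38.5 CPM in the WT control line. KO control was higher at 5 of 6 times, and its 150 min library, at 34.6 CPM, lay within the WT control range. The log2 difference was 0.27 ± 0.084 (adjusted p = 0.0252, edgeR), with means of 44.3 ± 5.68 CPM in the KO control line and 36.3 ± 1.68 CPM in the WT control line. The log2 difference stayed at 0.23 to 0.28 in the 8 fits without 1 library in which the adjusted p was above 0.05. These were the fits without the KO control library of 0 min (adjusted p = 0.0608), 30 min (0.0887), 60 min (0.0532), 90 min (0.0954) or 120 min (0.0573), and without the WT control library of 30 min (0.0600), 60 min (0.0591) or 90 min (0.122). The call was also lost with scaling by total counts (log2 difference 0.18, adjusted p = 0.0872), with the covariate (0.08, adjusted p = 0.895), with loess offsets (0.020, adjusted p = 0.896), without all 0 min libraries (adjusted p = 0.0748) and without the KO control libraries of 30 and 90 min (adjusted p = 0.288). The other Dppa5a intervals had log2 differences of 0.14 to 0.25 that did not pass the adjusted test, with an interval 3.4 kb upstream at 7.76 ± 0.971 CPM in the KO control line and 6.42 ± 1.13 CPM in the WT control line. Whether reads of related gene copies were shared among them was not tested.

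The Dppa2 interval 28.4 kb downstream of the file's start (chr16:48331893-48332647, intergenic) was among the weakest of the 47, at 2.46 CPM per kb and with 5 to 26 counts per library. It had 0.629, 1.39 and 1.74 CPM (lowest, median, highest) in the KO control line, against 1.41, 2.09 and 2.91 CPM in the WT control line. KO control was lower at 5 of 6 times and the lines overlapped. The log2 difference was -0.75 ± 0.25 (adjusted p = 0.0426, edgeR), with means of 1.27 ± 0.432 CPM in the KO control line and 2.22 ± 0.569 CPM in the WT control line. The log2 difference was -0.82 to -0.58 in the 8 fits without 1 library in which the adjusted p was above 0.05. These were the fits without the KO control library of 0 min (adjusted p = 0.0711), 30 min (0.136), 60 min (0.0543), 90 min (0.177) or 120 min (0.0522), and without the WT control library of 30 min (0.0961), 90 min (0.208) or 120 min (0.105). The call was also lost with the covariate (log2 difference -0.31, adjusted p = 0.896), with loess offsets (-0.66, adjusted p = 0.103) and without the KO control libraries of 30 and 90 min (-0.44, adjusted p = 0.465). DESeq2 gave no adjusted p for it, and it was not tested under the stricter filter.

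**Figure D2:**
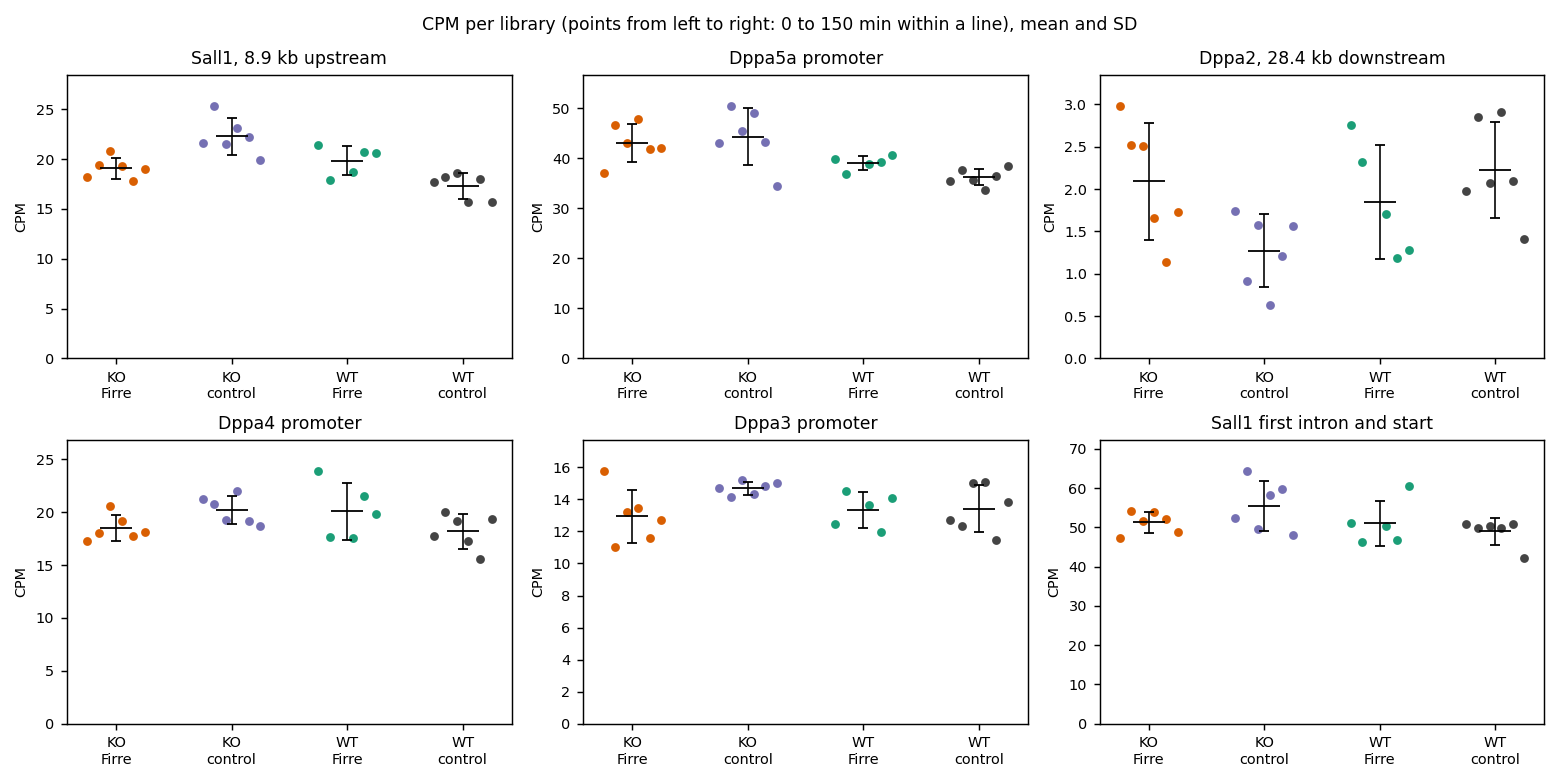
CPM (vertical axis) of 6 intervals in each library, by line (horizontal axis); points run from 0 to 150 min within a line, and the black bars are the mean and SD. At Sall1 8.9 kb upstream every KO control library lay above every WT control library, whereas at the Dppa5a promoter and the distal Dppa2 interval the ranges overlapped.

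The other Dppa and Sall promoters did not pass the test between the control lines, and their intervals bound the change. The Dppa2 promoter at the file's start had 18.4 ± 2.38 CPM in the KO control line and 15.9 ± 0.836 CPM in the WT control line, a log2 difference of 0.19 (95% interval 0.0079 to 0.38, adjusted p = 0.202, edgeR). Its second promoter interval, over the RefSeq start, had 31.2 ± 4.03 CPM in the KO control line and 28.9 ± 2.65 CPM in the WT control line, a difference of 0.09 (-0.07 to 0.26). The Dppa4 promoter had 20.2 ± 1.32 CPM in the KO control line and 18.2 ± 1.67 CPM in the WT control line, 0.14 on the log2 scale (-0.04 to 0.32). The Dppa3 promoter had 14.7 ± 0.408 CPM in the KO control line and 13.4 ± 1.48 CPM in the WT control line, 0.13 (-0.06 to 0.31). The proximal Sall2 interval had 28.5 ± 2.69 CPM in the KO control line and 27.4 ± 1.47 CPM in the WT control line, 0.05 (-0.12 to 0.21). For these promoters the 95% intervals thus ended at 0.38 or lower on the log2 scale, whereas those of the narrow Sall4 promoter intervals were wide, from -1.18 to -0.07 at the one 0.2 kb inside and from -0.62 to 0.48 at the one over the inner start. The interval at the start of Sall1 had 55.4 ± 6.33 CPM in the KO control line and 48.9 ± 3.36 CPM in the WT control line, with a log2 difference of 0.17 (0.0011 to 0.33, adjusted p = 0.222).

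The reassigned promoters of Sall3 and Sall4 did not pass the test either. The Sall3 promoter had 34.1 ± 1.48 CPM in the KO control line and 31.5 ± 2.37 CPM in the WT control line, a log2 difference of 0.11 (95% interval -0.06 to 0.27, adjusted p = 0.474, edgeR). The interval over the RefSeq start of Sall4 had 45.8 ± 5.28 CPM in the KO control line and 42.2 ± 0.874 CPM in the WT control line, a difference of 0.11 (-0.05 to 0.27, adjusted p = 0.468). These are the most accessible intervals of either gene, and their 95% intervals were as narrow as those of the other abundant promoters.

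**Figure D3:**
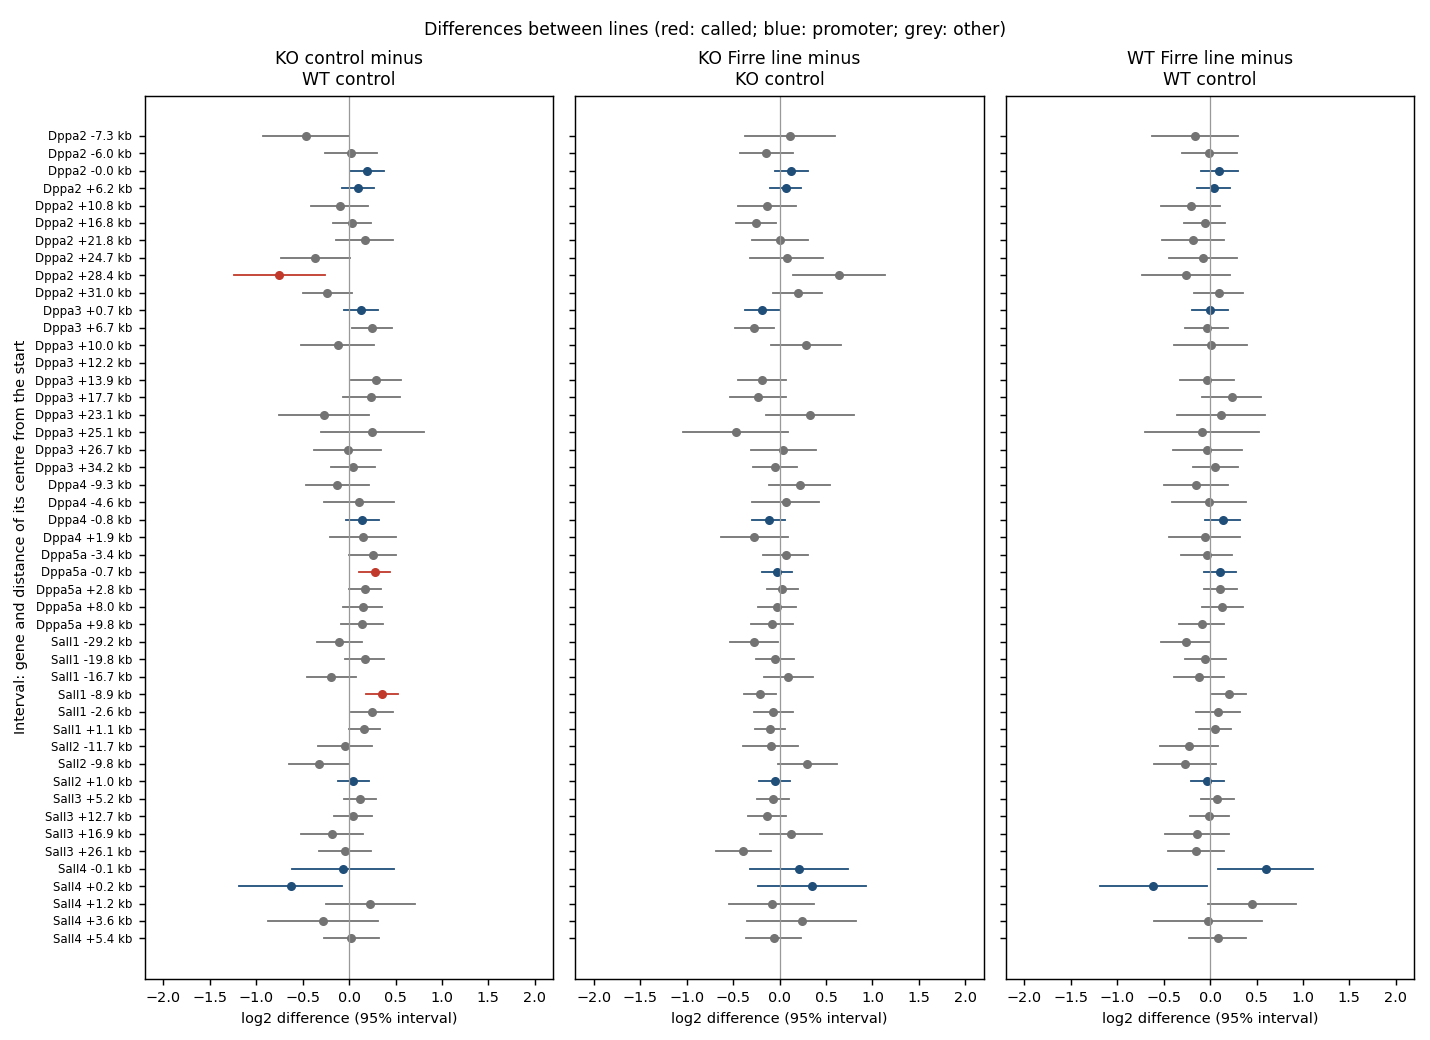
log2 differences with 95% intervals (horizontal axis) for each Dppa and Sall interval (vertical axis, gene and distance of the centre from the start) in 3 comparisons of lines; red marks called intervals, blue promoter intervals and grey others. The 3 called intervals are in the KO control minus WT control panel, and in the other panels 0 were called; 1 Dppa3 interval has no value because it failed the filter.

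The transgenic lines were compared with their controls next, over all times. In the KO background, KO Firre line against KO control, 0 of 46 Dppa and Sall intervals were called by edgeR, whereas 0.913% of all tested intervals were. DESeq2 also called 0. By edgeR 7 of the 46 had an unadjusted p under 0.05, against 15875 of all 129515 tested intervals. The smallest p was at the Sall3 interval 26.1 kb downstream (chr18:80959767-80961073), with 4.12 ± 0.709 CPM in the KO Firre line and 5.45 ± 1.65 CPM in the KO control line and a log2 difference of -0.39 (95% interval -0.69 to -0.09, adjusted p = 0.232, edgeR). No interval had lines that did not overlap, against 0.943% of all. The 3 intervals called between the control lines had log2 differences of the opposite sign or near 0 here: -0.21 (-0.38 to -0.04) at Sall1 8.9 kb upstream, -0.03 (-0.19 to 0.13) at the Dppa5a promoter and 0.64 (0.14 to 1.14) at the distal Dppa2 interval. These values share the KO control libraries with the comparison above. At the Sall1 interval the KO Firre line had 17.8, 19.2 and 20.8 CPM (lowest, median, highest) and lay below KO control at 6 of 6 times, but the lines overlapped and the adjusted p was 0.25.

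In the WT background, WT Firre line against WT control, 0 of 46 intervals were called by edgeR and 0 by DESeq2, with 0.0818% of all tested intervals called by edgeR. An unadjusted p under 0.05 was found for 4 of the 46 by edgeR, against 9779 of all 129515 tested intervals. None had lines without overlap, against 0.837% of all. The smallest p was at the Sall4 interval over the inner start, which had 1.97, 2.32, 1.70, 2.75 and 1.79 CPM in the WT Firre line at 0, 30, 90, 120 and 150 min, against 0.949, 1.38 and 1.98 CPM (lowest, median, highest) in the WT control line. Its log2 difference was 0.60 (95% interval 0.09 to 1.11, adjusted p = 0.574, edgeR). The neighbouring Sall4 interval 0.2 kb inside differed in the other direction, by -0.61 (-1.19 to -0.04), at 1.03 ± 0.258 CPM in the WT Firre line and 1.71 ± 0.596 CPM in the WT control line. At these levels a library holds 6 to 26 counts, and neither interval passed the adjusted test. The part of depth in this was not tested. The interval over the RefSeq start of Sall4, with 43.0 ± 3.35 CPM in the WT Firre line and 42.2 ± 0.874 CPM in the WT control line, had a log2 difference of 0.02 (-0.16 to 0.19).

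The difference of the transgenic contrasts between backgrounds (KO minus WT) was tested as well. It called 0 of 46 intervals by edgeR and 0 by DESeq2, against 0.266% of all tested intervals by edgeR. At an unadjusted p under 0.05 were 5 of the 46, against 13694 of all 129515 (edgeR). The smallest p was again at the Sall1 interval 8.9 kb upstream, where the lines had 19.1 ± 1.08 CPM in the KO Firre line and 22.3 ± 1.83 CPM in the KO control line, and 19.9 ± 1.48 CPM in the WT Firre line and 17.3 ± 1.30 CPM in the WT control line. The log2 difference of the contrasts was -0.42 (95% interval -0.67 to -0.17, adjusted p = 0.134, edgeR). Without the KO control library of 150 min it passed, with a log2 difference of -0.48 and an adjusted p of 0.0486. Leaving out any other library gave 0 calls. This contrast holds the same KO control and WT control libraries in which the interval was called above, with the opposite sign, so it is not a separate observation.

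The response of accessibility to doxycycline induction was measured as the change from 0 min in the Firre lines minus that in the control lines. It was averaged over 30 to 150 min, with the backgrounds as replicates. Firre RNA itself was not examined here. No interval of any gene was called (0 of 46, and 0% of all tested intervals), and DESeq2 called 0 of the 46. By edgeR an unadjusted p under 0.05 was found for 4885 of all 129515 tested intervals, and for 1 of the 46, the Dppa5a interval 3.4 kb upstream. In the KO Firre line it had 7.81 ± 1.20 CPM later (SD, n = 5) and 9.36 CPM at 0 min, and in the KO control line 7.90 ± 1.02 CPM later (n = 5) and 7.08 CPM at 0 min. In the WT Firre line it had 5.72 ± 1.23 CPM later (n = 4) and 8.39 CPM at 0 min, and in the WT control line 6.80 ± 0.715 CPM later (n = 5) and 4.52 CPM at 0 min. Both Firre lines thus averaged lower later than at 0 min, and both control lines averaged higher, with a log2 response of -0.72 ± 0.24 (95% interval -1.20 to -0.25, adjusted p = 1.00, edgeR). Each response rests on 1 library at 0 min per line. The Dppa5a promoter itself had a response of 0.07 (-0.26 to 0.39).

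In the control lines alone, 30 to 150 min against 0 min, 0 of 46 intervals were called by edgeR and 0 by DESeq2. Over all tested intervals edgeR called 0%. At an unadjusted p under 0.05 were 2 of the 46, against 6816 of all 129515 (edgeR). The smallest p was at the Dppa2 interval 6.0 kb upstream (chr16:48297276-48298560), which had 4.97 ± 1.13 CPM later and 7.21 CPM at 0 min in the KO control line, and 4.97 ± 0.998 CPM later and 6.64 CPM at 0 min in the WT control line. The log2 difference was -0.50 (95% interval -0.85 to -0.14, adjusted p = 0.922, edgeR). In the Firre lines the same interval had 4.79 ± 0.698 CPM later and 4.97 CPM at 0 min on the KO background, and 5.15 ± 1.28 CPM later and 5.25 CPM at 0 min on the WT background. The test over the whole course of the Firre response called 0 of 46 intervals by edgeR and 0 by DESeq2. Of all tested intervals edgeR called 0.000772% (1 interval). An unadjusted p under 0.05 was found for 3 of the 46, against 5728 of all 129515 (edgeR). The smallest p there was at the Dppa3 interval 17.7 kb downstream (chr6:122643967-122644991), at 2.98 to 5.65 CPM in the KO Firre line, 4.40 to 5.17 CPM in the KO control line, 3.07 to 6.16 CPM in the WT Firre line and 3.50 to 5.80 CPM in the WT control line (adjusted p = 1.00, edgeR).

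**Figure D4:**
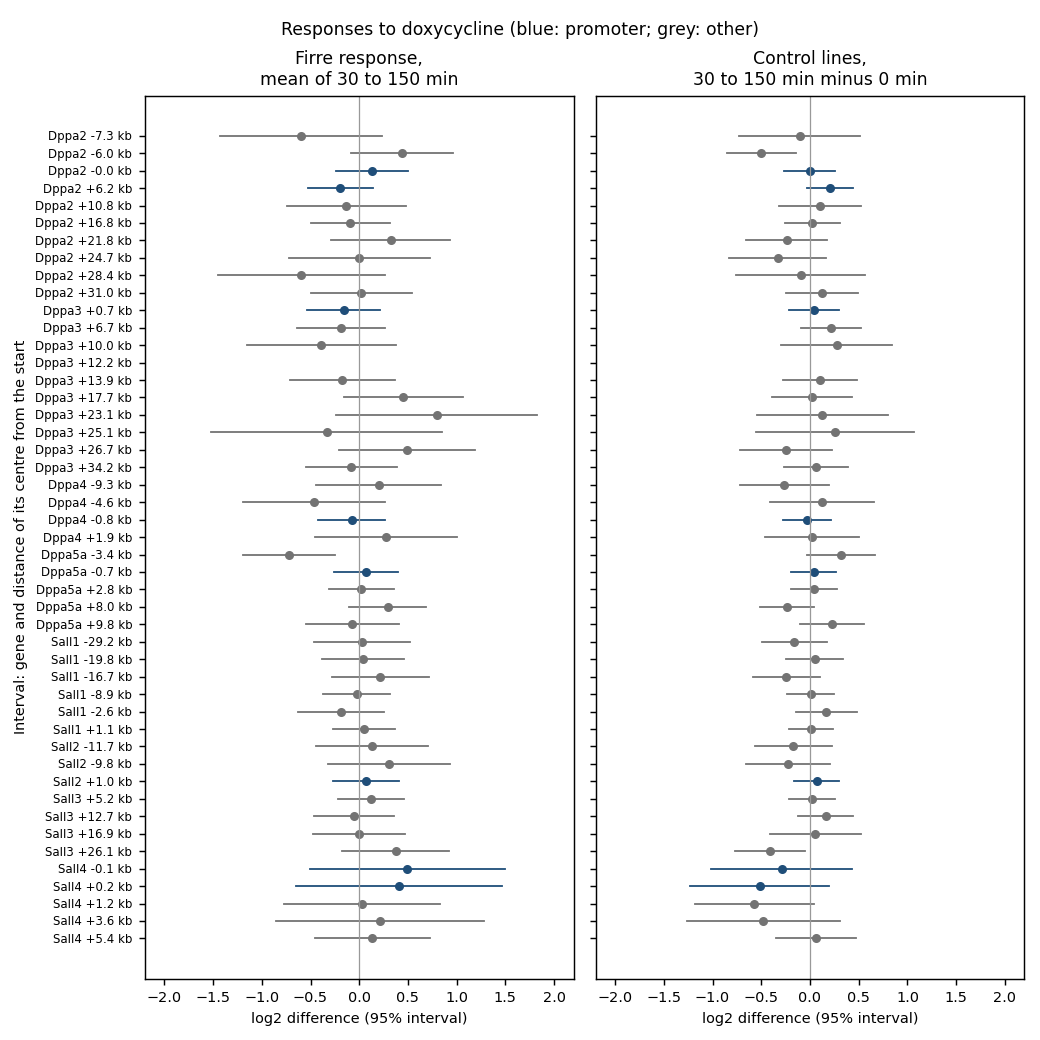
log2 responses with 95% intervals (horizontal axis) for each Dppa and Sall interval (vertical axis, gene and distance of the centre from the start): left, change from 0 min in Firre lines minus control lines, mean of 30 to 150 min; right, the same change in the control lines alone. None was called; the interval of Dppa5a 3.4 kb upstream had the response farthest below 0 at the left, -0.72.

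The median standard error of the 46 intervals was 0.14 on the log2 scale for the KO control minus WT control difference and 0.26 for the mean Firre response. The responses of the 8 promoter intervals ran from -0.20 at the Dppa2 promoter over the RefSeq start to 0.49 at the Sall4 interval over the inner start. The proximal Sall2 interval had a response of 0.07 (95% interval -0.27 to 0.41), the Dppa4 promoter -0.07 (-0.42 to 0.27) and the Dppa3 promoter -0.16 (-0.53 to 0.21). Changes within these intervals were not detectable at this depth and number of libraries. Calls were adjusted over all tested intervals and these 95% intervals were not, so larger changes could also go uncalled.

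Genes tied to the Dppa and Sall proteins were counted by their promoter intervals in the KO control minus WT control comparison, in which 16.4% of all tested promoter intervals were called higher and 1.38% lower. NuRD is the complex that SALL proteins recruit. Of its 12 listed subunit genes 6 had a promoter interval, and Chd4, Mta1, Rbbp4, Rbbp7, Mbd2 and Gatad2b had none. Of the 8 tested promoter intervals, 3 were higher and 0 lower. They belonged to Mbd3 (log2 difference 0.41, adjusted p = 0.00055), Gatad2a (0.41, adjusted p = 0.000929) and Hdac2 (0.29, adjusted p = 0.023), all by edgeR. Genes of methylation maintenance and the germline are the setting in which DPPA3 and DPPA2 with DPPA4 act. Of the 12 listed, 11 had a promoter interval. Of their 15 tested promoter intervals, 4 were higher and 0 lower. They belonged to Uhrf1, Dnmt1, Dazl and Ddx4. That of Uhrf1, the partner of the maintenance methylase, had 66.0 CPM in the KO control line and 47.6 CPM in the WT control line (log2 difference 0.46, adjusted p = 8.79e-05, edgeR). The log2 difference was 0.31 for the methylase gene Dnmt1, and 0.39 and 0.31 for the germ cell genes Dazl and Ddx4. Of the 10 tested promoter intervals of the 8 naive mESC markers, 2 were higher, at Esrrb (0.41) and Zfp42 (0.31), and 0 lower. For chromosomal neighbours of the 8 genes 0 of 10 promoter intervals were called, for fibroblast markers 0 of 6 and for primitive endoderm markers 0 of 3. The median log2 difference was 0.16 for NuRD, 0.07 for methylation and germline genes, 0.10 for the neighbours and 0.21 for the naive markers, against 0.09 for all promoter intervals. In the 6 other comparisons 0 promoter intervals of any of these lists were called. Slc25a31 of the methylation and germline list and Cyld and Tox4 of the neighbours also had no promoter interval. The calls of these lists were not followed in the alternative fits.

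The promoter interval whose log2 CPM moved most like that of a Dppa or Sall gene over the 23 libraries was picked from 21330 other promoter intervals, for the 6 genes that have a promoter interval under their own name, by the one highest in CPM. It was that of Tom1l2 for Dppa5a (Pearson r = 0.91), Gm45164 for the Dppa2 interval over the RefSeq start (0.88), Snapc1 for Dppa4 (0.78), Atpaf1 for Sall2 (0.77), Gm23010 for Dppa3 (0.73) and BC064078 for the narrow Sall4 interval over the inner start (0.72). Sall1 and Sall3 have no promoter interval under their own name and were not compared. These values describe 23 libraries that share lines, depth and promoter share. Each r is the highest of 21330 searched, and the highest r that unrelated intervals would give was not computed. The Sall4 interval held only 6 to 26 counts per library.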

How the data were processed

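The deposited table holds raw counts of reads per consensus interval and library, whole numbers that the authors did not normalize, and the deposited annotation gives each interval's position, distance to the nearest TSS and gene name. Coordinates are on mm10, and MACS2 2.2.7.1 and featureCounts were used, per the submitters' processing notes. Not given in the sources used here are the aligner, duplicate removal, read shifting and the annotation release. Counts were fitted with edgeR 4.0.16 (TMM, filterByExpr with a minimum of 10 counts by line, glmQLFit with robust estimation, quasi-likelihood F test, Benjamini-Hochberg over 129515 intervals, called at an adjusted p of 0.05 or less) in R 4.3.3. The line fit held line and time (14 residual degrees of freedom per interval, before edgeR shares the spread across intervals). The fit of responses over time added a transgene by time term (9). DESeq2 1.42.0 was an alternative. The edgeR fits of the KO control minus WT control difference and of the mean Firre response were tested on simulated data. Standard errors and 95% intervals of log2 differences come from the F statistic. RefSeq tables of GRCm38.p6 gave promoter windows and gene starts.

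The members, gene lists and tests were chosen with earlier results of these data known. Named intervals were all promoter intervals, the 2 others per gene highest in CPM per kb, those called, and the one with the smallest p per comparison. The reassigned intervals at Sall1, Sall3 and Sall4 were named after their values were seen. Sall3 sequence is not shown here.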

Additional observations from a re-analysis of the deposited data

Results flagged for a closer look

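In 29 named intervals and 4 lines, 116 groups were checked for a library far from the others of its line, and 6 were found, where chance alone gives about 1 in 20 groups. In the KO Firre line, the Dppa2 interval 6.0 kb upstream had 3.58 CPM at 150 min, against 4.92 to 5.37 CPM in the other libraries. In the KO control line at 30 min, the Dppa4 interval 1.9 kb downstream had 6.06 CPM, against 3.02 to 4.07 CPM in the others, and the Sall4 interval 3.6 kb downstream of the inner start had a count of 0, against 1.10 to 1.76 CPM in the others. That library allows up to 0.551 CPM at a count of 0. In the WT control line at 150 min, the interval over the start of Sall1 had 42.2 CPM, against 49.7 to 50.9 CPM in the others, and the one 2.6 kb upstream had 6.51 CPM, against 7.73 to 8.40 CPM. In the same library the Dppa3 interval 17.7 kb downstream had 5.80 CPM, against 3.50 to 4.20 CPM in the others.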

How the results depend on the processing

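Of the 46 tested intervals, 3 were called between KO control and WT control. None was called with the promoter share as a covariate, with loess offsets or without the KO control libraries of 30 and 90 min (0 in each), and the count was 1 to 3 when libraries were left out in turn. It was 2 with total counts, DESeq2, the stricter filter and without the 0 min libraries, and 3 with no filter or no time term. The cause of these losses was not tested, and promoter share and line do not overlap between the control lines. The difference of the transgenic contrasts gave 0 to 1 calls when libraries were left out. The other comparisons gave 0 calls for these intervals under every alternative. Direction was followed only for the called intervals and the one with the smallest p per comparison, and none of these was reversed. The median log2 difference of the 46 between KO control and WT control did change sign. It was 0.043 with TMM and -0.050 with total counts. The summed level of the 47 intervals in the WT control line was 454.57 CPM with total counts and 436.41 CPM with TMM. It was 462.04 and 474.59 CPM in the KO control line, 446.99 and 456.48 CPM in the KO Firre line and 447.99 and 444.56 CPM in the WT Firre line. The WT control line was thus lowest with TMM but above both Firre lines with total counts.

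Calls over all intervals moved more. KO control against WT control gave 10324, DESeq2 6074, loess offsets 6266, the covariate 56, leaving out KO control at 30 and 90 min 2135, and leaving out single libraries 5207 to 17196. The KO Firre comparison gave 1183, with 153 (DESeq2) to 2011 (loess offsets) under the alternatives. The WT Firre comparison gave 106, with 49 to 197. The difference of the contrasts gave 345, with 67 to 1254, the Firre response 0, with 0 to 2, and the course 1, with 0 to 8. Libraries of the same time were matched across lines by the time term of the line fits, and the labels carry no replicate numbers beside time. Depth limits the narrow Sall4 intervals, at 6 to 26 counts per library for the promoter ones.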
